A study of Mus musculus with 16 samples.

Results

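MiR-132 and miR-212 are a pair of microRNAs made from neighbouring hairpins of 1 mouse locus. They were taken from the lung arrays by name, as every entry for mouse miR-132 or miR-212 of either arm. This gave 2 of the 611 mouse miRNAs on the array, miR-132-3p and miR-212-3p, each measured by 2 probes of 10 spots. The array carried no probe named for either 5p arm, so the 5p arms were not analysed here.

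MiRNA levels were measured in total RNA of lungs of adult BALB/c mice with Agilent 1-colour arrays, in 4 groups that differ in sensitisation (the first exposure, by injection) and challenge (exposure of the airways through the nose). PBS/PBS (2 arrays) received the adjuvant Alhydrogel without allergen and was challenged with PBS. PBS/OVA (4 arrays) received the same adjuvant without allergen and was challenged with 10 μg ovalbumin (OVA, an egg-white protein used as allergen) on each of days 12 to 15. OVA/OVA (6 arrays) received 50 μg OVA with 1 mg Alhydrogel on day 0 and the same OVA challenges, which gives allergic airways disease (AAD). OVA/OVA DEX (4 arrays) was treated as OVA/OVA and also received 3 mg/kg dexamethasone (DEX, a synthetic glucocorticoid) from day 11, every second day, where the labels give PBS as the treatment of the other groups. All groups thus share the adjuvant, and all lungs were taken 24 hours after the last challenge. The labels number the arrays as replicates and do not tie them to single animals, so p-values measure the spread between these samples. The tissue is a mixture of cells, in which fewer cells of a type and less of a miRNA per cell cannot be told apart.

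A microRNA guides the silencing complex to messenger RNAs, mostly by pairing of its seed, the bases near its 5′ end, so miRNAs with the same seed can share targets. MiR-132 and miR-212 are best known from neurons, where the transcription factor CREB induces their common transcript, and miR-132 is also induced in myeloid cells by bacterial products. Acetylcholinesterase and the coactivator p300 are known targets of miR-132. The pair was examined here to see whether its level in lung differed with allergy or with steroid treatment.

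The sequences below, from RefSeq on GRCm38.p6, are shown because both measured arms carry the same seed; bases 2 to 8 are in capitals.
mmu-miR-132-3p: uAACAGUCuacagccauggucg
mmu-miR-212-3p: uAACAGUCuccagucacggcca
mmu-miR-132-5p: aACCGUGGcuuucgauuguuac
mmu-miR-212-5p: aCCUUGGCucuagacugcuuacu
The 3p arms were identical at their first 9 bases and at 17 of 22 positions (77.3%). No other miRNA among the 1738 mature sequences of the RefSeq table used here held the seed AACAGUC. The 5p arms, which had no probe, carried different seeds from the 3p arms and from each other. MiR-212-3p lies at chr11:75173443-75173464 and miR-132-3p at chr11:75173723-75173744, both on the plus strand. The hairpins, Mir212 and Mir132, are separated by 203 bp. Because the 3p arms share much of their sequence, signal from one on the probes of the other cannot be told apart from its own level with these data.

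Both miRNAs were faint. MiR-212-3p was detected, by the call of the Feature Extraction software, on all 16 arrays. MiR-132-3p was detected on 2 of 2 PBS/PBS, 4 of 4 PBS/OVA, 4 of 6 OVA/OVA and 2 of 4 OVA/OVA DEX arrays. The arrays without a detection call were OVA/OVA replicates 5 and 6 and OVA/OVA DEX replicates 3 and 4. Levels are given as scaled signal, the summed spot intensity of a miRNA as a percent of the 75th percentile of the same array over the 206 miRNAs detected on all arrays.

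The arrays themselves differed in brightness. Summed miRNA intensity was lowest at 251350 and highest at 733489 among OVA/OVA arrays, with 793227 to 940050 for PBS/PBS, 493063 to 718149 for PBS/OVA and 499733 to 638811 for OVA/OVA DEX, and 224 to 301 miRNAs were detected per array. The dimmest arrays were OVA/OVA replicates 6, 3 and 5. The arrays lay on 2 slides, and both PBS/PBS arrays lay on slide 1. No spot was saturated, and precision is limited by the small number of arrays.

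MiR-132-3p had its highest scaled signals in OVA/OVA and its lowest in OVA/OVA DEX. In PBS/PBS its scaled signal was 0.869 and 0.911. In PBS/OVA it was 0.930, 1.42, 0.921 and 1.03 in replicates 1 to 4. One PBS/OVA array, replicate 2, thus stood above the others of its group. In OVA/OVA miR-132-3p measured 1.75, 1.75, 1.56, 1.11, 0.944 and 0.918 in replicates 1 to 6, and in OVA/OVA DEX 0.978, 0.842, 0.690 and 0.775. The 3 highest values of all arrays were OVA/OVA replicates 1 to 3, whereas replicates 5 and 6 fell within the range of the steroid-treated lungs.

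MiR-212-3p varied mostly within the OVA/OVA and OVA/OVA DEX groups. Its scaled signal was 1.51 and 1.55 in PBS/PBS and 1.68, 1.75, 1.42 and 1.54 in PBS/OVA. It was 2.75, 2.11, 1.19, 2.11, 2.36 and 1.50 in OVA/OVA and 2.03, 1.20, 1.38 and 2.20 in OVA/OVA DEX. The range of OVA/OVA enclosed those of all other groups, and the range of OVA/OVA DEX enclosed those of both groups without sensitisation.

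**Figure D1:**
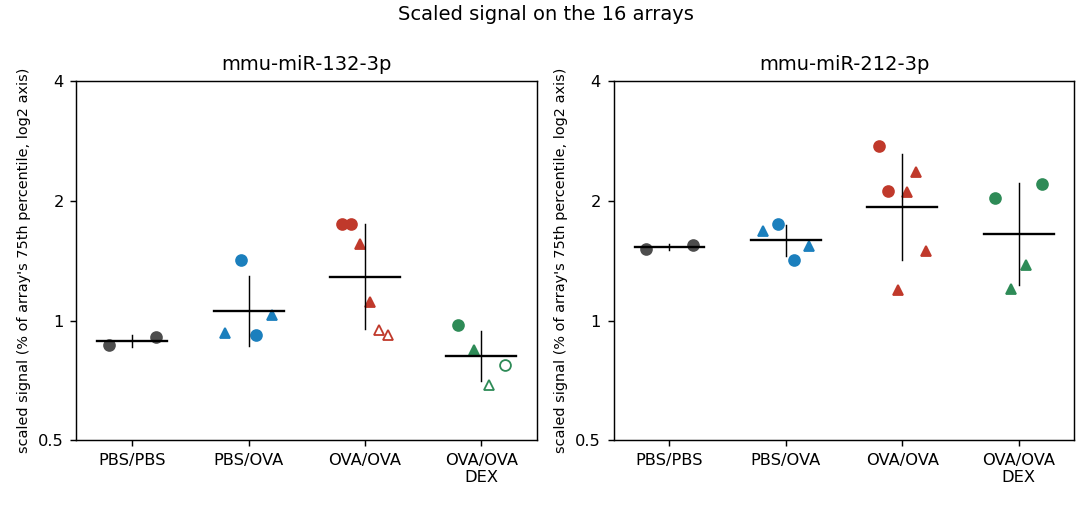
Scaled signal (percent of the array's 75th percentile, log2 axis) of miR-132-3p and miR-212-3p on each array by group, with circles for slide 1, triangles for slide 2, open symbols where the miRNA was not called detected, and bars for the mean ± SD of log2 values. MiR-132-3p sits between 0.690 and 0.978 in OVA/OVA DEX and between 0.918 and 1.75 in OVA/OVA, and miR-212-3p overlaps between all groups.

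On the log2 scale, the group means of miR-132-3p were ordered OVA/OVA, 0.37 ± 0.44 (SD, n = 6), PBS/OVA, 0.08 ± 0.29 (SD, n = 4), PBS/PBS, -0.17 ± 0.05 (SD, n = 2), and OVA/OVA DEX, -0.30 ± 0.21 (SD, n = 4). No neighbours in this order differed past the test given below. The means of miR-212-3p were ordered OVA/OVA, 0.95 ± 0.45 (SD, n = 6), OVA/OVA DEX, 0.72 ± 0.42 (SD, n = 4), PBS/OVA, 0.67 ± 0.13 (SD, n = 4), and PBS/PBS, 0.61 ± 0.03 (SD, n = 2). Again no neighbours differed past the test. OVA/OVA thus had the highest mean of both miRNAs, and OVA/OVA DEX came last for miR-132-3p but second for miR-212-3p.

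The probes behind these values differed in quality. For miR-132-3p, probe A_54_P1054 had mean intensities from 6.05 to 28.9 per array and 66 of 160 spots well above background, and probe A_54_P1055 had means from 1.42 to 11.3 and 0 of 160 such spots. For miR-212-3p, probe A_54_P2617 had means from 10.4 to 50.0 and 145 of 160 spots well above background, and probe A_54_P2616 had means from 0.227 to 13.2 and 2 of 160. Each miRNA thus rested on 1 brighter and 1 dim probe. The median variation between spots of a probe on an array (CV) was 20.7% for A_54_P1054, 40.9% for A_54_P1055, 37.1% for A_54_P2616 and 9.96% for A_54_P2617. Negative control spots, which bind no miRNA by design, averaged 1.74 to 3.47 per array with SDs from 1.95 to 2.66. The means of both dim probes therefore reached into the range of negative control spots. On OVA/OVA replicates 3, 5 and 6 and OVA/OVA DEX replicates 3 and 4, A_54_P1054 had 0 of 10 spots well above background.

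**Figure D2:**
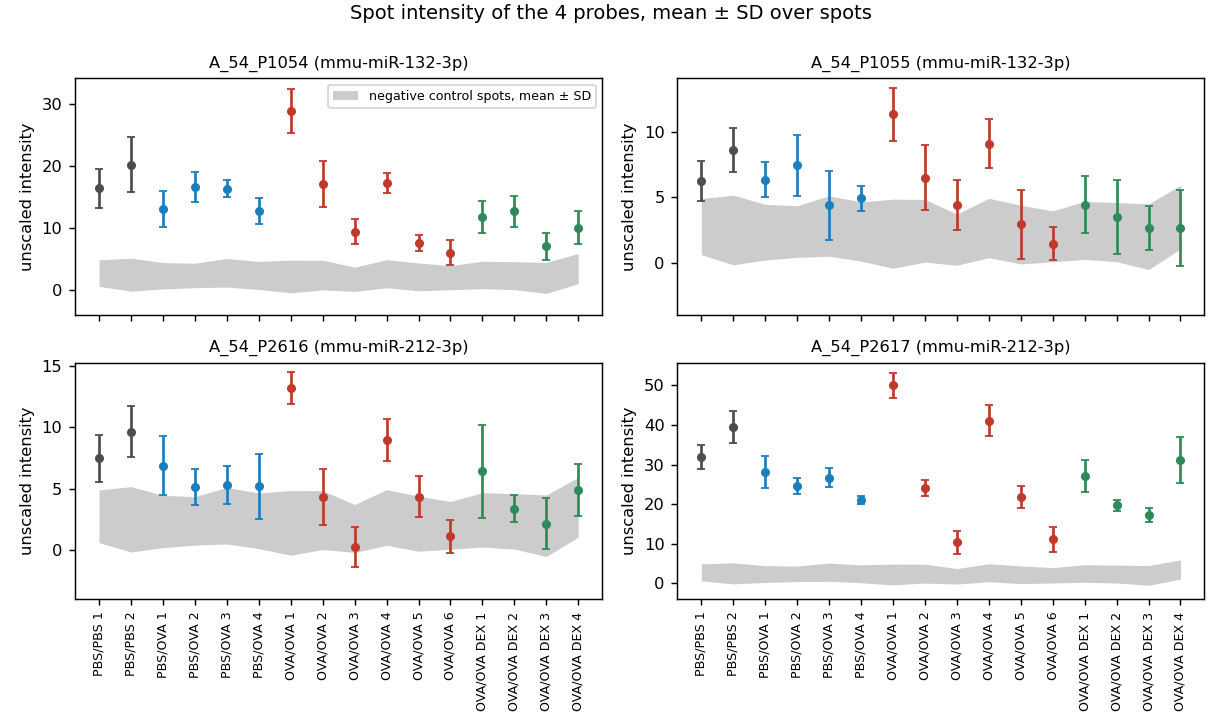
Unscaled intensity of the 4 probes on each array, as mean ± SD over the spots without an outlier flag, with the mean ± SD of the negative control spots in grey. A_54_P1055 and A_54_P2616 overlap the grey band on many arrays, whereas A_54_P2617 lies above it on each array, with means from 10.4 to 50.0.

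The question of the steroid comparison was whether DEX changed the pair in allergic lungs. MiR-132-3p was higher in OVA/OVA than in OVA/OVA DEX by 0.66 on the log2 scale (SE 0.207, 95% interval 0.22 to 1.11), a 1.58-fold difference, with an adjusted p of 0.0157 in the limma fit over all 266 miRNAs tested. Calls needed both an adjusted p under 0.05 and a 2-fold change, so miR-132-3p passed the p but not the fold. Of the 266 miRNAs, 12.8% were called in this comparison and 53.4% had an adjusted p under 0.05. The array values of the groups overlapped, with the OVA/OVA array higher in 22 of 24 pairs. For miR-212-3p the difference was 0.23 (SE 0.224, 95% interval -0.26 to 0.71, adjusted p = 0.424 in the same fit), and 16 of 24 pairs were higher in OVA/OVA. It moved to 0.075 without OVA/OVA DEX replicate 2 and to 0.37 without OVA/OVA DEX replicate 4. The median difference over all miRNAs tested was -0.09.

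Within slide 1, miR-132-3p was higher in OVA/OVA than in OVA/OVA DEX by 1.01 (2 against 2 arrays), and within slide 2 by 0.54 (4 against 2 arrays). With the slide as a block the difference was 0.73 (adjusted p = 0.00438, limma). MiR-212-3p gave 0.19 and 0.43 within the slides. Both miRNAs therefore had the same sign on each slide. With the log2 summed intensity of the array as a covariate, since brightness differed between the groups, miR-132-3p gave 0.72 (adjusted p = 0.0229, limma). For the brighter probes alone, the difference was 0.58 for A_54_P1054 of miR-132-3p and 0.24 for A_54_P2617 of miR-212-3p.

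The steroid difference of miR-132-3p changed with the scaling and the background correction. It was -0.07 (adjusted p = 0.797) when arrays were scaled by positive control spots, which moved the median of all miRNAs from -0.09 to -0.82, and miR-132-3p lay 0.75 above the median under both scalings, as it must when 1 factor per array is changed. Over the alternatives the adjusted p ranged from 0.00242 to 0.797. Quantile normalization gave 0.25 (adjusted p = 0.557) and normexp background correction 0.33 (adjusted p = 0.335), which lay 0.40 and 0.17 above their medians of all miRNAs in place of 0.75. Normexp was run with an offset of 50 added to each spot, beside probe means of 0.227 to 50.0 for the pair. Its values for such faint miRNAs depend on that offset. After the mean of the negative control spots was subtracted from each probe, an alternative chosen after seeing the data, the difference was 0.87 with an adjusted p of 0.0503. Without the 2 dimmest arrays, OVA/OVA replicates 3 and 6, also chosen after seeing the data, it was 0.72 (adjusted p = 0.0226, limma), and that of miR-212-3p was 0.49 (adjusted p = 0.0431, limma) in place of 0.23. Without the 3 dimmest OVA/OVA arrays, likewise chosen after seeing the data, miR-132-3p gave 0.89 (adjusted p = 0.0065, limma) and miR-212-3p 0.48 (adjusted p = 0.0711, limma). The 2 arrays left out held the lowest miR-212-3p signals of OVA/OVA, 1.19 and 1.50.

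Allergic lungs were next compared with lungs that were never given OVA. For miR-132-3p the difference of OVA/OVA minus PBS/PBS was 0.54 (SE 0.262, 95% interval -0.03 to 1.10, adjusted p = 0.138, limma). With the negative control mean subtracted, miR-132-3p on OVA/OVA replicates 5 and 6, at 0.562 and 0.428, lay below PBS/PBS, at 0.660 and 0.755. That setting was chosen after seeing the data. In the reported processing, the lowest OVA/OVA array, at 0.918, lay just above the higher PBS/PBS array, at 0.911. There 12 of 12 pairs were higher. In this comparison of 6 with 2 arrays, 51.5% of all miRNAs tested did not overlap, and 9.77% were called. For miR-212-3p it was 0.33 (SE 0.284, 95% interval -0.28 to 0.95, adjusted p = 0.374, limma), with 8 of 12 pairs higher in OVA/OVA. The intervals of both miRNAs include 0 and a rise of over 1.9-fold. On slide 1, the only slide that held both groups, the differences were 0.98 for miR-132-3p and 0.66 for miR-212-3p (2 against 2 arrays). With the slide as a block, miR-132-3p gave 0.80 with an adjusted p of 0.0298 in limma, which was again under 2-fold and no call.

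The comparison with PBS/OVA addresses sensitisation among challenged lungs. OVA/OVA minus PBS/OVA was 0.29 for miR-132-3p (SE 0.207, 95% interval -0.16 to 0.73, adjusted p = 0.292, limma) and 0.28 for miR-212-3p (SE 0.224, 95% interval -0.20 to 0.76, adjusted p = 0.347, limma). The groups overlapped for both, with 17 of 24 pairs higher in OVA/OVA for each. Neither miRNA was called, against 5.26% of all miRNAs tested. Within slides 1 and 2 the differences were 0.62 and 0.18 for miR-132-3p and 0.61 and 0.11 for miR-212-3p. The signs of both comparisons with controls turned without scaling between arrays and under quantile normalization. Without scaling, OVA/OVA minus PBS/PBS was -0.56 for miR-132-3p and -0.76 for miR-212-3p, beside a median of all miRNAs of -1.11. Normexp background correction raised it to 0.93 for miR-132-3p (adjusted p = 0.0236, limma) and 0.86 for miR-212-3p (adjusted p = 0.0194, limma). The median of all miRNAs was 0.54 there, and neither was called. That setting adds an offset of 50 to each spot, which after scaling counts for more on dim arrays. The dimmest arrays were in OVA/OVA, so these p-values cannot separate a rise of the pair from array brightness.

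In the remaining comparisons no difference passed the test. MiR-132-3p gave a log2 difference of -0.38 in OVA/OVA DEX minus PBS/OVA (SE 0.227, 95% interval -0.87 to 0.11, adjusted p = 0.365, limma), and 0.752% of all miRNAs were called there. Its difference between OVA/OVA DEX and PBS/PBS was -0.13 (95% interval -0.73 to 0.47, adjusted p = 0.879, limma), where 0% of all miRNAs were called by limma and 19 had an unadjusted p under 0.05. OVA challenge without sensitisation gave 0.25 for miR-132-3p in PBS/OVA minus PBS/PBS (95% interval -0.35 to 0.85, adjusted p = 0.997, limma). With the negative control mean subtracted, PBS/OVA, from 0.675 to 1.14, overlapped PBS/PBS, at 0.660 and 0.755. In the reported processing, all 8 of 8 pairs were higher in PBS/OVA. In this comparison 18.8% of all miRNAs did not overlap and 0.376% were called. MiR-212-3p gave 0.05 (95% interval -0.48 to 0.58), 0.11 (95% interval -0.54 to 0.76) and 0.06 (95% interval -0.59 to 0.70) in these comparisons in the same order, with adjusted p-values from 0.915 to 0.997 in limma. Within slides, OVA/OVA DEX minus PBS/OVA was -0.39 and -0.36 for miR-132-3p, whereas miR-212-3p changed sign, with 0.42 on slide 1 and -0.32 on slide 2.

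Over the 6 comparisons of both miRNAs, limma called 0 of 12 differences, and 1 had an unadjusted p under 0.05, in the comparison in which 160 of all 266 miRNAs had one. The exact two-sided Mann-Whitney test likewise called 0 of 12 and had 1 unadjusted p under 0.05. That difference was miR-132-3p between OVA/OVA and OVA/OVA DEX under both tests (exact Mann-Whitney p = 0.0381, adjusted p = 0.0714). The comparisons share arrays and are not independent of each other.

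**Figure D3:**
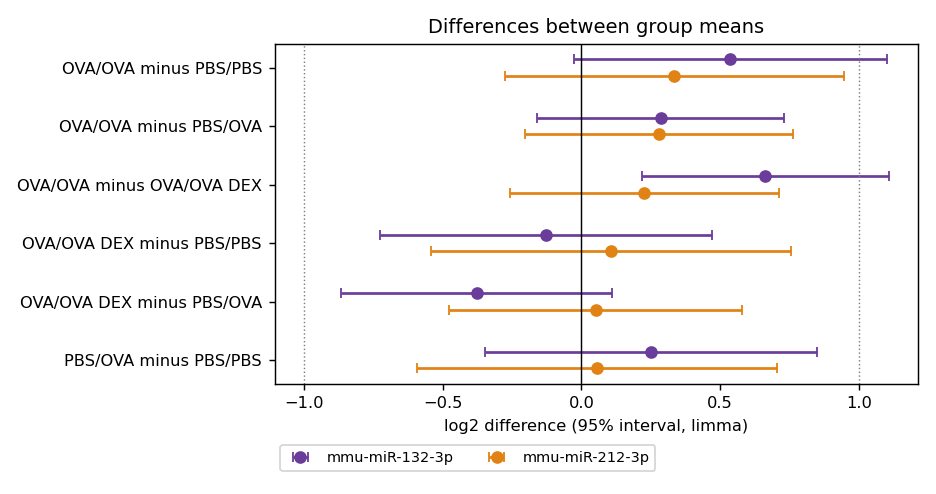
Log2 differences between group means of miR-132-3p (purple) and miR-212-3p (orange) with 95% intervals from limma, for the 6 comparisons, with dotted lines at 2-fold. The interval of miR-132-3p in OVA/OVA minus OVA/OVA DEX, 0.22 to 1.11, is the only one of the 12 that does not include 0.

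Because both miRNAs were read on the same array, their ratio does not depend on the scaling of that array. The log2 ratio of miR-132-3p to miR-212-3p signal averaged -0.58 for OVA/OVA (SD 0.59, n = 6), -0.59 for PBS/OVA (SD 0.22, n = 4), -0.78 for PBS/PBS (SD 0.02, n = 2) and -1.02 for OVA/OVA DEX (SD 0.41, n = 4). These are ratios of probe signals and not of molecules. The lowest mean ratio was that of the steroid-treated lungs, and the widest spread that of OVA/OVA, where the ratio ran from 0.400 in replicate 5 to 1.31 in replicate 3. The difference between OVA/OVA and OVA/OVA DEX was 0.44 (exact permutation test, two-sided, p = 0.252, adjusted over 6 comparisons 0.667). Over the alternatives, which include other background corrections, this difference ranged from 0.041 to 0.67. The lowest value came from normexp background correction, whose offset of 50 on each spot draws the ratio of 2 faint miRNAs together. OVA/OVA DEX minus PBS/OVA gave -0.43 (exact permutation test, p = 0.114, adjusted 0.667), and in the other comparisons the exact permutation p was 0.333 or higher. With 4 against 2 arrays this exact test cannot go below p = 0.0667. The steroid difference of miR-132-3p is thus not shown to be unlike that of miR-212-3p.

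Across the 16 arrays the scaled levels of the pair were only loosely related, with Pearson's r = 0.342 (permutation p = 0.194) and Spearman's rho = 0.391 (permutation p = 0.134). Without OVA/OVA replicates 1 and 2, the arrays farthest from the median of miR-132-3p, r was -0.0712. Leaving out the arrays most extreme in miR-132-3p narrows its range, so this value does not show what the relation rested on. After removal of the group means r was 0.193. Before scaling, r was 0.780, a value that contains the brightness shared by all miRNAs of an array. OVA/OVA replicate 3, with the lowest miR-212-3p and the third-highest miR-132-3p level of its group, had the highest ratio of the 16 arrays, 1.31.

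**Figure D4:**
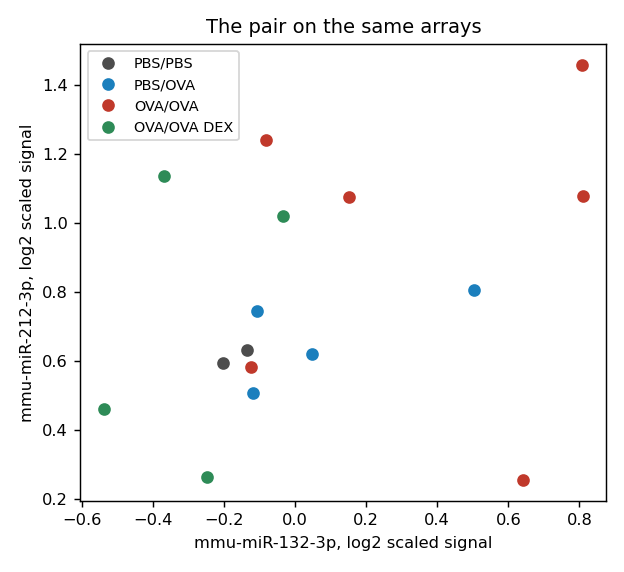
Log2 scaled signal of miR-212-3p against that of miR-132-3p on the 16 arrays, coloured by group. OVA/OVA replicates 1 and 2 lie at the upper right and OVA/OVA replicate 3 at the lower right, and Pearson's r over all arrays is 0.342.

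A_54_P2617, the brighter probe of miR-212-3p, gave 0.43 for OVA/OVA minus PBS/PBS, 0.36 for OVA/OVA minus PBS/OVA and 0.24 for OVA/OVA minus OVA/OVA DEX. A_54_P2616, which is summed with it, had the opposite sign in 6 of 6 comparisons. On OVA/OVA replicate 3 its intensity was 0.227, below the negative control mean of 1.74 on that array. On the log2 scale so low a value weighs heavily on the OVA/OVA mean. These signs therefore do not show that the probes disagree. The probes of miR-132-3p had the same sign in 6 of 6. The 6 comparisons reuse the same group means, and 1 probe of each miRNA lies near background, so neither count of signs is support for a difference. No size of difference is given for A_54_P2616, with 14 of 16 arrays without a spot well above background, nor for A_54_P1055, with 16 of 16.

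The miRNAs whose pattern over the 16 arrays was most like that of miR-212-3p, among the other 205 detected on all arrays, were miR-202-3p (r = 0.746), miR-720 (r = 0.719), miR-532-3p (r = 0.686), miR-362-3p (r = 0.618) and miR-28-5p (r = 0.550). After removal of the group means these r were 0.757, 0.714, 0.652, 0.570 and 0.475. These are descriptions over arrays that share scaling and brightness. No such list is given for miR-132-3p, which was detected on 12 of 16 arrays.

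MiRNAs known from innate immune responses were set beside the pair, since miR-132 is induced with them in myeloid cells. Of 7 on this list, 4 were tested, and 2 of the 4 were called higher in OVA/OVA than in OVA/OVA DEX (9.4% of all miRNAs tested), 3 higher than in PBS/PBS (6.02% of all) and 1 higher than in PBS/OVA (3.38% of all). MiR-155-5p, which acts in lymphocyte and macrophage activation, was higher in OVA/OVA than in OVA/OVA DEX by 2.60 and miR-21-5p, which is raised in many inflamed tissues, by 1.45 on the log2 scale. MiR-146b-5p, a feedback inhibitor of Toll-like receptor signalling, gave 0.97 (adjusted p = 1.65e-05, limma) and, like miR-132-3p, stayed under 2-fold. MiR-146a-5p, of the same seed family, gave 0.06 (adjusted p = 0.672, limma), and -0.21 and -0.29 against PBS/PBS and PBS/OVA. The list's median difference was 1.21, against -0.09 over all miRNAs and 0.66 for miR-132-3p. Of 8 miRNAs known from neurons, 6 were detected on no array and 1, miR-128-3p, was tested, with a difference of 0.03 between OVA/OVA and OVA/OVA DEX.

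Markers of several cell types moved between the same groups. The 5 haematopoietic miRNAs (miR-142-3p, miR-142-5p, miR-150-5p, miR-223-3p and miR-342-3p) were detected on all arrays, and their summed scaled signal was 1932 to 2840 for OVA/OVA, 1083 to 1596 for OVA/OVA DEX, 956 to 1422 for PBS/OVA and 1226 to 1379 for PBS/PBS. The range of OVA/OVA did not overlap that of any other group for this sum. MiR-132-3p of OVA/OVA was apart from PBS/PBS only, and not once the negative control mean was subtracted. MiR-212-3p of OVA/OVA was apart from no group. One of the 5, miR-142-3p, was called higher in OVA/OVA than in OVA/OVA DEX, a comparison in which 9.4% of all miRNAs were called higher and 3.38% lower, and the list's median was 0.57. Under 2-fold there, miR-342-3p gave 0.90 (adjusted p = 2.69e-05, limma), miR-142-5p 0.57 (adjusted p = 0.0106, limma) and miR-223-3p 0.51 (adjusted p = 0.0143, limma). MiR-150-5p gave 0.44 (adjusted p = 0.0768, limma). Of 3 miRNAs of red cells, miR-486-5p was not matched by name in the scanner values and was not analysed here, and the other two, miR-144-3p and miR-451, were called lower in OVA/OVA than in OVA/OVA DEX, with summed signals of 2176 to 4144 against 5888 to 8007. Of 4 miRNAs of ciliated cells, miR-449a-5p and miR-449c-5p were called higher in OVA/OVA than in OVA/OVA DEX, and the others, miR-34b-5p and miR-34c-5p, gave -0.28 (adjusted p = 0.00777, limma) and -0.36 (adjusted p = 0.00201, limma). The list summed to 231 to 315 against 209 to 266. The endothelial pair of miR-126 summed to between 1797 and 2403 in OVA/OVA, and to between 2394 and 2851 in OVA/OVA DEX, and no member of the endothelial, epithelial, smooth muscle or fibroblast lists was called in that comparison. Under 2-fold but with adjusted p under 0.05 in limma were miR-126-3p (-0.30), miR-126-5p (-0.88), miR-143-3p (-0.31), miR-145-5p (-0.45), miR-199a-3p (-0.27), miR-199a-5p (-0.32) and miR-200a-3p (-0.27). MiR-200c-3p also passed the p, with the other sign (0.25). The other epithelial miRNAs tested and miR-214-3p did not. Of all miRNAs tested, 53.4% had an adjusted p under 0.05 there. Lung markers of endothelium, epithelium and smooth muscle were thus present on the arrays. The part of these cell types in the levels of miR-132-3p and miR-212-3p was not tested.

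**Figure D5:**
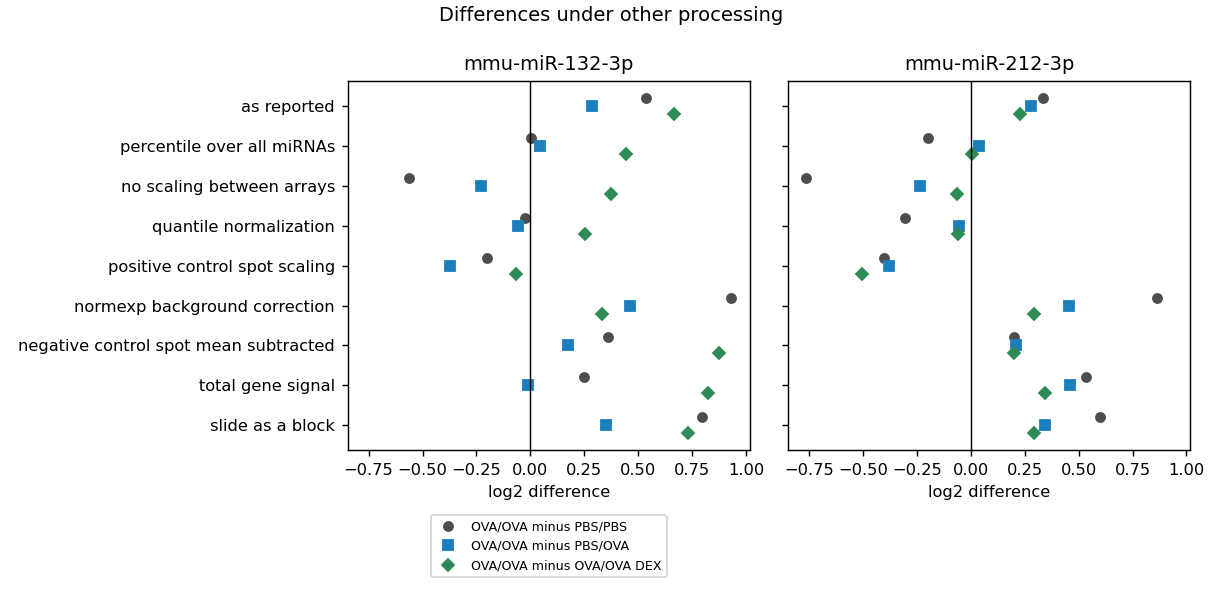
Log2 differences of OVA/OVA from the other groups for miR-132-3p and miR-212-3p under the reported processing and 8 alternatives. The steroid difference of miR-132-3p lies above 0 in each setting drawn except scaling by positive control spots (-0.07), whereas the differences from PBS/PBS lie on both sides of 0.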

How the data were processed

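The authors hybridised Cy3-labelled total lung RNA to 16 Agilent Mouse miRNA arrays (release 12.0) and deposited the spot intensity given by Agilent Feature Extraction 10.7.3.1, from which the local background had been subtracted and which was not normalized across arrays. The authors also deposited processed log2 values, whose scaling is not given in the sources used here. Those of miR-132 and miR-212 departed from the scanner's gene totals by up to 3.40 and 3.37 on the log2 scale, against a tolerance of 0.15, and were not used for them.

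After removal of outlier-flagged spots, spots were averaged per probe and probes summed per miRNA. The sums were divided by the 75th percentile of the array, taken over the 206 miRNAs with a detection call on all 16 arrays, and multiplied by 100, a floor of 0.100 was set, which no value of the pair reached, and log2 was taken. Group means of all 16 arrays were fitted with limma 3.58.1 in R 4.3.3 over the 266 miRNAs that all arrays of 1 or more groups detected, with Benjamini-Hochberg adjustment and two-sided tests. Ratios of the pair were tested by exact permutation over arrays. Both tests were checked on simulated data. Python 3.11.15, numpy 2.4.6, pandas 2.3.3 and matplotlib 3.10.9 were also used. Sequences came from RefSeq tables of GRCm38.p6.

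Both members, the 5 most similar miRNAs of a member detected on all arrays, and up to 3 members of a list, or those a call turned on, were named. The members and lists were chosen with earlier results of these data known. Alternatives covered scaling, background correction, summary of probes, filters, floor, slide, replicate number, array brightness, variance model, test and each array left out in turn. The qPCR and antagomir experiments were not analysed here.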

Additional observations from a re-analysis of the deposited data

How the results depend on the processing

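None of the 12 differences of miR-132-3p and miR-212-3p became a call under any alternative that kept the 2-fold requirement. With no fold required, miR-132-3p in OVA/OVA minus OVA/OVA DEX (0.66) was called. Signs of uncalled differences turned as follows, and the cause was not tested. Without scaling, miR-132-3p gave -0.56 (OVA/OVA minus PBS/PBS), -0.23 (OVA/OVA minus PBS/OVA) and -0.33 (PBS/OVA minus PBS/PBS), and miR-212-3p gave -0.76, -0.24 and -0.53 there, -0.063 in OVA/OVA minus OVA/OVA DEX, -0.70 in OVA/OVA DEX minus PBS/PBS and -0.17 in OVA/OVA DEX minus PBS/OVA. Under quantile normalization, miR-132-3p gave -0.024 and -0.057 in OVA/OVA minus PBS/PBS and minus PBS/OVA, and miR-212-3p -0.30 and -0.056 there, -0.060 in OVA/OVA minus OVA/OVA DEX, -0.24 in OVA/OVA DEX minus PBS/PBS and -0.25 in PBS/OVA minus PBS/PBS. Scaled by positive control spots, OVA/OVA minus PBS/PBS, minus PBS/OVA and minus OVA/OVA DEX gave -0.20, -0.37 and -0.066 for miR-132-3p and -0.40, -0.38 and -0.50 for miR-212-3p, which gave -0.025 in PBS/OVA minus PBS/PBS. With the percentile over all miRNAs, PBS/OVA minus PBS/PBS gave -0.044 for miR-132-3p and -0.24 for miR-212-3p, which gave -0.20 in OVA/OVA and -0.21 in OVA/OVA DEX minus PBS/PBS. Normexp background correction, with its offset of 50 on each spot, gave miR-132-3p 0.60 and 0.13 in OVA/OVA DEX minus PBS/PBS and minus PBS/OVA. It gave 0.029 for the log2 ratio of the pair in the former. The total gene signal gave -0.013 for miR-132-3p in OVA/OVA minus PBS/OVA, and -0.29 and -0.47 for the ratio in OVA/OVA minus PBS/PBS and minus PBS/OVA. With the negative control mean subtracted, a setting chosen after seeing the data, miR-212-3p gave -0.0031 in OVA/OVA DEX minus PBS/PBS and -0.013 in PBS/OVA minus PBS/PBS, and the ratio -0.038 in OVA/OVA minus PBS/OVA. With the slide as a block, miR-132-3p gave 0.067 in OVA/OVA DEX minus PBS/PBS.

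Same-numbered replicates did not deviate together in 1 direction, so the numbers were not used to pair samples. Over 18 pairs of arrays r ran from -0.78 to 0.41 with a median of -0.06, and 3 had r over 0.1. With the replicate block, miR-132-3p gave 0.90 in OVA/OVA minus OVA/OVA DEX and 0.032 in OVA/OVA DEX minus PBS/PBS. It gave 0.93 in OVA/OVA minus PBS/PBS (adjusted p = 0.0167, limma) and 0.52 in OVA/OVA minus PBS/OVA (adjusted p = 0.0321, limma). MiR-212-3p gave 0.46 (adjusted p = 0.208, limma) and 0.30 (adjusted p = 0.296, limma) there, and no call changed.

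Leaving out 1 array at a time, miR-132-3p in OVA/OVA minus OVA/OVA DEX ranged from 0.58 to 0.76, with adjusted p-values from 0.00801 to 0.0492. MiR-132-3p in PBS/OVA minus PBS/PBS ranged from 0.11 (without PBS/OVA replicate 2) to 0.32, and the ratio in OVA/OVA minus OVA/OVA DEX from 0.24 (without OVA/OVA replicate 3) to 0.60. MiR-212-3p ranged from 0.075 to 0.37 in OVA/OVA minus OVA/OVA DEX, from -0.032 to 0.26 in OVA/OVA DEX minus PBS/PBS, with the lowest value without OVA/OVA DEX replicate 4, and from -0.087 to 0.20 in OVA/OVA DEX minus PBS/OVA, below 0 without PBS/OVA replicate 3 or OVA/OVA DEX replicate 1 or 4. The ratio in OVA/OVA minus PBS/OVA ranged from -0.19 to 0.16, below 0 without PBS/OVA replicate 1 or 3 or OVA/OVA replicate 2 or 3. A group of PBS/PBS reduced to 1 array was assumed to vary like the others. The filter for detection on all arrays gave no value for miR-132-3p, and the deposited processed values were not run for the pair. Signals near the negative control spots limit what the dim probes can show.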
